A study of Mus musculus with 2 samples.

Results

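The BCL2 family decides at the outer mitochondrial membrane whether a cell survives or dies, and 9 of its genes were followed here in mouse mucosal mast cell cultures. The genes were Bcl2, Bcl2l1, Mcl1, Bcl2a1b, Bax, Bak1, Bcl2l11, Bid and Bad. They were chosen by name, and a probe counted as theirs when its accession or the symbol in its description led to one of them. All 9 had 1 such probe on both arrays, out of 20625 gene names on the array, and all 9 were among the 18002 genes tested. Total RNA of cultures at day 20 was compared with total RNA of cultures at day 4, and both days had grown with IL-3, IL-9, SCF and TGF-betaI. SCF is stem cell factor, the ligand of the receptor Kit. Each of 2 two-colour Agilent arrays held both days, with day 20 in Cy5 and day 4 in Cy3 on array 1 and the dyes swapped on array 2. RNA from 3 samples had been pooled for each dye, and array 2 used pools of another origin than array 1. The labels name neither the strain nor the cells that were put into culture.

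The family has 3 kinds of members. Anti-apoptotic members such as BCL2, BCL-XL (encoded by Bcl2l1), MCL1 and A1 (encoded by the Bcl2a1 genes) hold the death-promoting members in check. The effectors BAX and BAK open pores in the mitochondrial membrane, which lets cytochrome c out and starts the caspases. BH3-only members such as BIM (Bcl2l11), BID and BAD sense stress or loss of growth factor and either block the anti-apoptotic proteins or switch on the effectors. Mast cells depend on SCF and IL-3 for survival, and A1 is known as a survival protein of mouse mast cells after activation through the IgE receptor. In neutrophils and macrophages A1 is also well known, as a target of NF-kB.

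Between 80.0% and 96.2% of 21318 gene spots counted as well above background in each of the 4 channels. Such spots could still be close to the negative control spots. At day 20 a typical (median) gene spot was 7.27 times the controls' median on array 1 and 1.65 times on array 2. At day 4 it was 2.79 and 4.28 times. On array 2 at day 20 the Bcl2l11 probe counted as well above background, yet 14.2% of negative control spots were at least as bright. Across 18002 genes, which are not independent replicates, the day 20 over day 4 ratios of the arrays correlated with r = 0.77 (Pearson) and rho = 0.47 (Spearman). The mast cell label could be checked against a marker list: 9 of 13 tested markers rose and 1 fell, with a median log2 ratio of 1.22. Those that rose include the IgE receptor chain Fcer1a and the chymases Cma1 and Mcpt2, and the marker that fell was Hdc, the gene of the histamine-making enzyme, at -1.28 ± 0.14 (adjusted p = 3.90e-06). Kit and Cpa3 each had an outlier-marked spot and were left out. In such bulk RNA, fewer cells of a type and less RNA per cell cannot be told apart.

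Of the 9 family genes, 2 fell, 0 rose and 7 did not pass the test (limma, two-sided, Benjamini-Hochberg adjusted p below 0.05 over all 18002 genes). Over all tested genes 17.1% passed, 7.82% as higher and 9.30% as lower at day 20. With an unadjusted p below 0.05, 3 of the 9 family genes and 4434 of all tested genes passed. The genes that fell were Bcl2a1b, an anti-apoptotic member, and Bak1, an effector. The median log2 ratio of the 9 was 0.02, against -0.01 over all tested genes, and the median size of the ratio regardless of sign was 0.16 against 0.10. The ratio had the same sign on both arrays for 6 of the 9. The SD between the arrays, pooled over genes, was 0.22 for the family and 0.19 for all tested genes. All values rest on n = 2 arrays, and their number limits the precision.

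**Figure D1:**
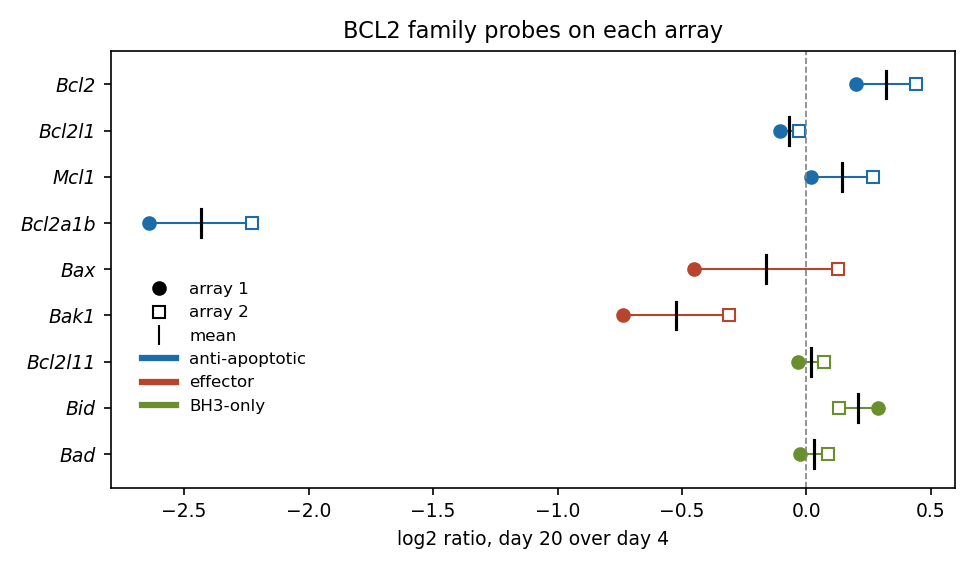
Log2 ratio of day 20 over day 4 for the 9 family genes on array 1 (filled circles) and array 2 (open squares), with the mean as a vertical bar and colours for the 3 kinds of members. Bcl2a1b lies at -2.64 and -2.23 and Bak1 at -0.74 and -0.31, while both ratios of each of the other 7 genes lie between -0.45 and 0.44.

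Bcl2a1b carried by far the largest difference of the family. Its normalized log2 intensity at day 20 was 6.12 on array 1 and 6.44 on array 2, against 8.76 and 8.66 at day 4. Both day 20 values lie more than 2 log2 units below both day 4 values, so the days did not overlap. The log2 ratio was -2.64 on array 1 and -2.23 on array 2, a mean of -2.43 ± 0.29 (SD, n = 2), or 5.40-fold lower at day 20. With limma the adjusted p was 3.49e-08, and the gene was the 11th lowest of the 18002 tested. At day 20 the probe was close to the negative control spots. Its net signal was 2.88 and 1.17 times their median at day 20, against 11.0 and 22.9 times at day 4, and on array 2 10.5% of the 162 negative spots were at least as bright as the day 20 signal. The size of the fall therefore depended on how background was treated: the log2 ratio was -3.75 with a normexp offset of 0 and -3.98 with the ratios of the scanner software. Bcl2a1b passed the test in each of the 8 settings with a test.

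Bcl2a1b lies on chromosome 9 (chr9:89199273-89207838, GRCm38.p6), where RefSeq places 3 close copies, Bcl2a1a, Bcl2a1c and Bcl2a1d. No probe on the array was named for the copies, and the sequence of the Bcl2a1b probe was not used here. Its signal may thus include RNA of the copies. How alike the copies are around their annotated starts is shown here because 1 probe name may stand for the group. Such likeness does not show whether the probe reads RNA of the copies. The RefSeq promoter windows of 300 bases, 250 of them before the start, were aligned locally. Bcl2a1b matched Bcl2a1a at 99.2% of 256 aligned positions, Bcl2a1d at 96.5% of 256 and Bcl2a1c at 95.7% of 234. Capitals mark the letters GAGGAAG, a core of the kind bound by ETS factors such as PU.1 of myeloid cells. The first sequence is the whole 250 bases before the annotated start of Bcl2a1b (chr9:89199023-89199272, plus strand), and the others are stretches of 120 bases from 30 bases before the first match of each copy, on chromosome 9 in GRCm38.p6.
Bcl2a1b: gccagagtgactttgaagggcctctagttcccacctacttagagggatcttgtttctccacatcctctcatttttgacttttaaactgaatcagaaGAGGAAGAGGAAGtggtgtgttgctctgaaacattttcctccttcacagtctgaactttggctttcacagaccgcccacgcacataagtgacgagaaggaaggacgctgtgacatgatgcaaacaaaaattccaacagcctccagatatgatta
Bcl2a1a (chr9:88956780-88956899, plus strand): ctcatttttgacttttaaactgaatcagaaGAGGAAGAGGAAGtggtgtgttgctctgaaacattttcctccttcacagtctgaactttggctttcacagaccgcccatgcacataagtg
Bcl2a1c (chr9:114329885-114330004, plus strand): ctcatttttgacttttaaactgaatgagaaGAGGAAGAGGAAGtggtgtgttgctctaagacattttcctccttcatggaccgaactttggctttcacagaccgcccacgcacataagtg
Bcl2a1d (chr9:88731865-88731984, minus strand): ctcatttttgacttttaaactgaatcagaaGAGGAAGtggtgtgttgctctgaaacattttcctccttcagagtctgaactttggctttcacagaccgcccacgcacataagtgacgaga

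Bcl2a1b, Bcl2a1a and Bcl2a1c hold 2 overlapping copies of the letters in this stretch, and Bcl2a1d holds 1. A match is a description and not a site. Read on both strands, GAGGAAG stood in at least 1 window of 250 bases of 12.0% of 27025 RefSeq genes and of 4 of the 9 family genes: Bcl2a1b, Bak1, Bcl2 and Bad.

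The genes whose pair of ratios lay nearest to that of Bcl2a1b, by Euclidean distance over the 2 arrays, were Ctsl, Spp1, Mmp14, Mrps28 and Dtymk. Ctsl encodes a lysosomal cathepsin and had log2 ratios of -2.42 and -2.10, at a distance of 0.26. Spp1, osteopontin, was at -2.71 and -2.61, and Mmp14, a membrane-bound matrix protease, at -2.33 and -1.92. Mrps28, named by the probe's accession and described as similar to a human mitochondrial ribosomal protein, was at -2.20 and -1.91. Dtymk, thymidylate kinase, was at -2.07 and -2.15. Likeness over 2 arrays is a description of the size of the ratios and no more, and here it held at an offset of 50. With an offset of 0 the mean ratio of Bcl2a1b was -3.75, against -3.26 for Mmp14, -2.67 for Spp1, -2.37 for Ctsl, -2.23 for Mrps28 and -2.17 for Dtymk.

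The other anti-apoptotic genes did not pass the test. Bcl2, the founding member of the family, had normalized log2 intensities of 9.20 and 8.69 at day 20 on arrays 1 and 2, against 9.001 and 8.25 at day 4. Within each array day 20 was the higher, but the values of the 2 days overlapped across the arrays. The log2 ratio was 0.20 and 0.44, a mean of 0.32 ± 0.17 (SD, n = 2), or 1.25-fold. The unadjusted p was 0.0159 and the adjusted p 0.0828 with limma, and limma's 95% interval of the mean ran from 0.07 to 0.57. The 95% intervals here and below use limma's standard error, whose degrees of freedom come mostly from other genes. Bcl2 is a gene that the mast cell factor MITF is known to activate.

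Mcl1, which encodes a short-lived survival protein, was 1 of the bright probes of the family. Its normalized log2 intensity was 9.89 and 9.83 at day 20, against 9.87 and 9.56 at day 4. Its log2 ratio was 0.02 on array 1 and 0.27 on array 2, with an adjusted p of 0.632. The 95% interval was from -0.11 to 0.39. Bcl2l1, which encodes BCL-XL, was dimmer, at 6.67 and 6.94 on day 20 against 6.78 and 6.97 on day 4. Its log2 ratio was -0.11 and -0.03, a mean of -0.07 ± 0.05 (SD, n = 2), with an adjusted p of 0.924 and a 95% interval from -0.31 to 0.17. The Bcl2l1 probe was close to background, at a net signal between 1.68 and 5.62 times the median of the negative control spots, so that a fall was hardly detectable there.

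**Figure D2:**
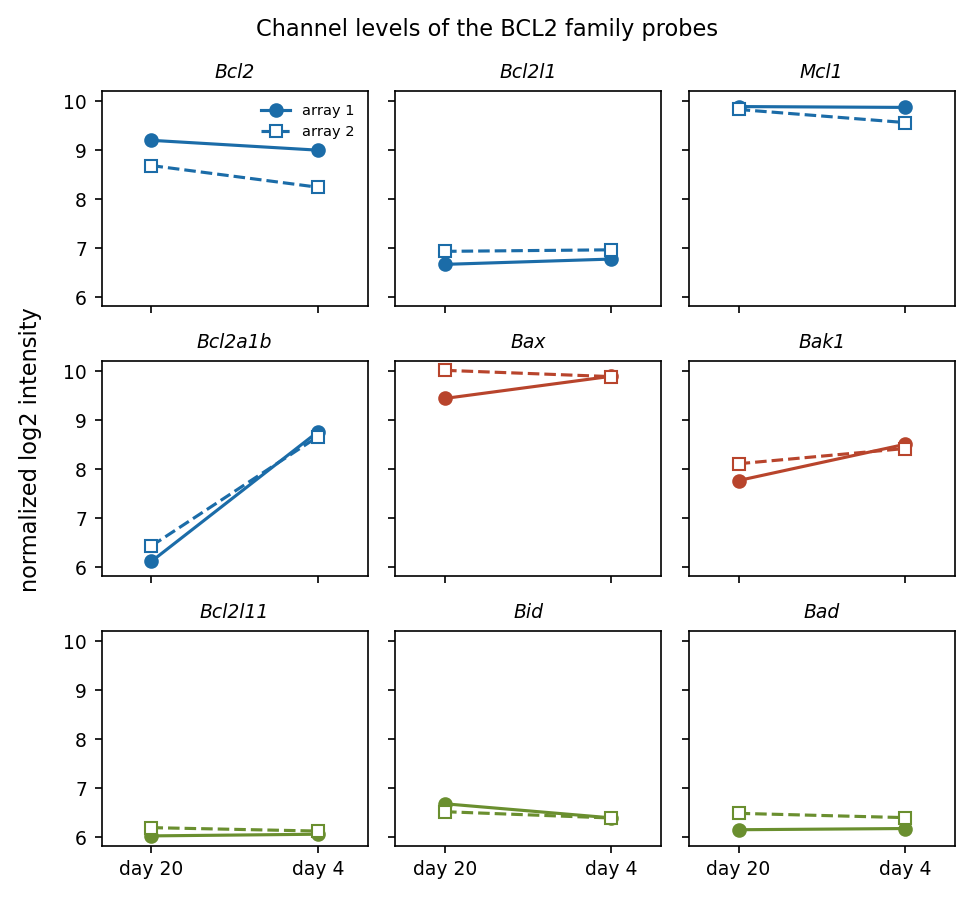
Normalized log2 intensity of each family probe at day 20 and at day 4, with 1 line for each array. Bcl2a1b is the panel with a steep slope on both arrays, at 6.12 and 6.44 on day 20 and 8.76 and 8.66 on day 4. The lines of Bax slope opposite ways, and so do the nearly flat lines of Bcl2l11 and Bad.

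The effector pair Bax and Bak1 was measured well above background in all channels. Bak1 had normalized log2 intensities of 7.77 and 8.11 at day 20, against 8.51 and 8.42 at day 4, and the days did not overlap. Its log2 ratio was -0.74 on array 1 and -0.31 on array 2, a mean of -0.52 ± 0.30 (SD, n = 2), or 1.44-fold lower at day 20. The adjusted p was 0.00947 with limma. The call was lost with median centring in place of loess (adjusted p = 0.146) and with the scanner software's ratios (adjusted p = 0.129), while the ratio remained below 0 in both, at -0.52 and -0.65.

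Bax had normalized log2 intensities of 9.45 and 10.02 at day 20, against 9.90 and 9.89 at day 4. The 2 arrays went opposite ways, with log2 ratios of -0.45 and 0.13. The mean of -0.16 ± 0.41 (SD, n = 2) had an adjusted p of 0.653 and a limma 95% interval from -0.46 to 0.13. That interval rests on limma's standard error of 0.14 and is not the spread of the 2 arrays for Bax. The ratio of Bak1 was below that of Bax by 0.29 on array 1 and by 0.44 on array 2, a difference that was not tested.

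Bak1 lies on chromosome 17 (chr17:27019812-27028627, GRCm38.p6). The 120 bases before its annotated start are printed because Bak1 was the other family gene that fell. Capitals mark the same 7 letters as above, here on the opposite strand (CTTCCTC).
Bak1 (chr17:27028628-27028747, minus strand): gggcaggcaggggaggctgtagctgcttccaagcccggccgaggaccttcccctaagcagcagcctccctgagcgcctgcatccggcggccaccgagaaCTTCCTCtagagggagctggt

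The letters stand 15 to 21 bases before the start of Bak1 and 142 to 154 bases before that of Bcl2a1b. Other short motifs were also searched on both strands of the 250 bases before each start of the 9 genes, chosen for factors known to act on family genes. The letters GGGA, any 4 letters and CC, of the kind bound by NF-kB, were found in Bak1 alone of the 9, against 19.7% of 27025 genes with a window. Outside the 9, the copy Bcl2a1c held them 56 to 65 bases before its start. TTCNNNGAA, of the STAT type, was found in 0 of the 9, against 8.1% of genes. CATGTG, an E-box bound by MITF, was found in Bcl2l1 alone (13.8% of genes), and GTAAACA, of the FOXO type, in Bcl2l11 alone (3.5%). These 5 motifs did not overlap one another in the 9 genes, and no match says only that the letters are not in the window. In all 7 motifs were tried. The other 2 were looser: GGG, any 5 letters and CC, which covers the NF-kB letters above, was found in 8 of the 9 genes, all but Bcl2a1b, against 48.7% of genes, and CATG, a core of p53 sites that also lies within CATGTG, in 4 of the 9 against 57.6%. GAGGAAG was picked for printing after the matches were seen.

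The BH3-only genes Bcl2l11, Bid and Bad were dim, and none passed the test. Bcl2l11, which encodes BIM, a killer of cells deprived of cytokine, had normalized log2 intensities of 6.03 and 6.20 at day 20, against 6.06 and 6.13 at day 4. On array 2 its day 4 signal was not well above background, and the days overlapped. Its log2 ratio was -0.03 and 0.07, with an adjusted p of 0.997. Bad, whose protein is held inactive by growth factor signalling, was at 6.16 and 6.49 on day 20, against 6.18 and 6.40 on day 4. The log2 ratios of Bad were -0.02 and 0.09, with an adjusted p of 0.994.

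Bid links death receptors to mitochondria once caspase 8 has cut its protein. Its normalized log2 intensity was 6.68 and 6.52 at day 20, against 6.40 and 6.39 at day 4. Day 20 was the higher on both arrays, with log2 ratios of 0.29 and 0.13 and a mean of 0.21 ± 0.11 (SD, n = 2), but the adjusted p was 0.317. With the scanner software's ratios the mean was 0.64 with an adjusted p of 0.106. Over the 4 channels, the net signal of these 3 probes was between 1.14 and 5.48 times the median of the negative control spots. Ratios of such dim probes are pulled towards 0 by the offset, so a fall in the 3 BH3-only genes was hardly detectable at this signal. A large rise from so low a level is not hidden in this way. Bcl2a1b passed the test with day 20 levels of 6.12 and 6.44.

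**Figure D3:**
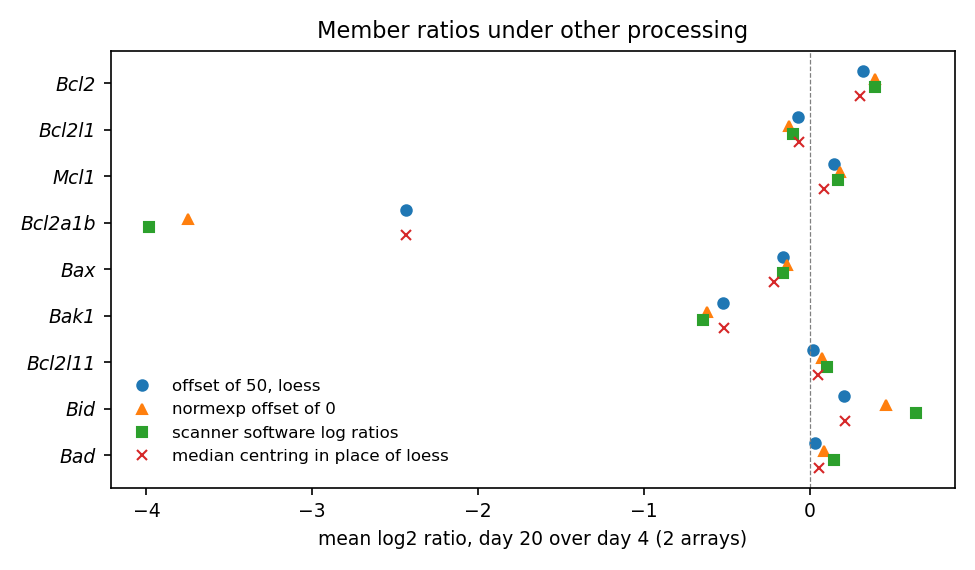
Mean log2 ratio of day 20 over day 4 for the 9 family genes under 4 treatments of background and dye. Bcl2a1b moves between -2.43 and -3.98 and Bid between 0.21 and 0.64, and no mean ratio changes its sign.

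Among other BCL2 relatives, a list of 24 names of which 15 had a tested probe, 2 rose and 0 fell. The list's median log2 ratio was 0.01. Bbc3, the BH3-only gene for PUMA, which p53 and FOXO factors are known to induce, was the clear riser. Its normalized log2 intensity was 11.7 on both arrays at day 20, against 10.4 and 10.3 at day 4. The log2 ratio was 1.34 and 1.47, a mean of 1.41 ± 0.09 (SD, n = 2), or 2.65-fold higher, with an adjusted p of 1.47e-06 by limma, and it passed in all 8 settings with a test. Bnip3l, whose protein marks mitochondria for removal, rose by 0.41 ± 0.06 with an adjusted p of 0.0194, but did not pass in 4 settings (adjusted p from 0.0753 to 0.233).

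Bcl2l2, which encodes the anti-apoptotic BCL-W, showed a log2 ratio of 0.32 ± 0.23 with adjusted p = 0.0971. The BH3-only genes Pmaip1 (0.01), Bmf (-0.03), Bik (-0.08) and Hrk (0.07) and the effector relative Bok (-0.13) did not pass. These 6 genes lie outside the rule for named genes and were picked for their place in the family after their values were seen. Bmf had 2 probes, whose log2 ratios were -0.22 and 0.16 for the brighter and -0.12 and 0.26 for the other.

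**Figure D4:**
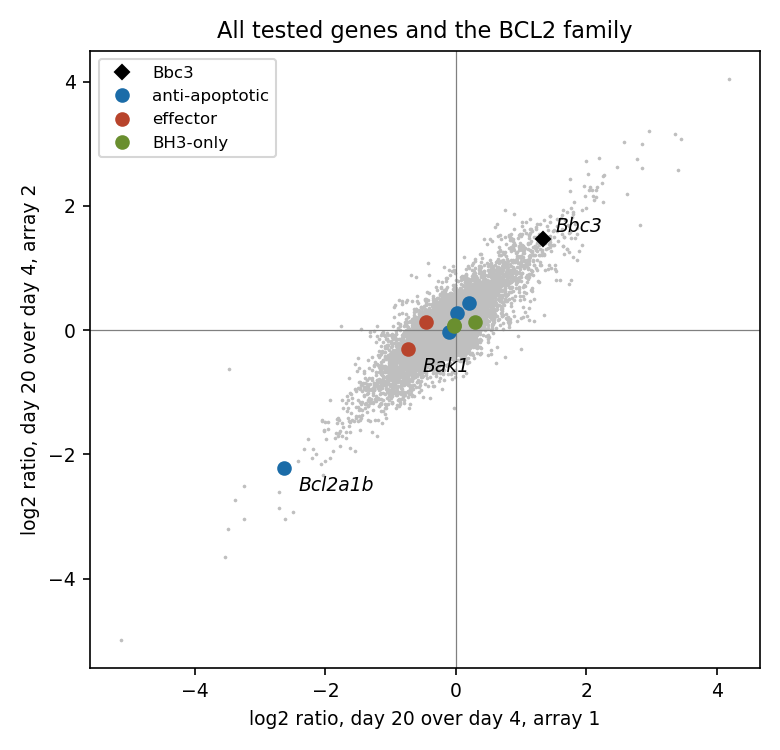
Log2 ratio of day 20 over day 4 on array 1 (x axis) and array 2 (y axis) for the 18002 tested genes in grey, with the 9 family genes in colour and Bbc3 as a diamond. Bcl2a1b stands near the low end of the cloud at -2.64 and -2.23, Bbc3 at 1.34 and 1.47, and the other family genes lie near the centre.

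Genes that act after the BCL2 family at the mitochondrion went mostly down among those that passed. Of 18 tested genes of this list 6 fell and 1 rose, and the median was -0.19. Cycs, the cytochrome c that effector pores release and that also serves respiration, fell at normalized log2 intensities of 10.7 and 9.96 at day 20, against 12.1 and 11.3 at day 4. Its log2 ratio was -1.35 ± 0.03 (SD, n = 2), or 2.54-fold lower, with an adjusted p of 2.02e-06. These values are of the brightest probe, and with the mean of all probes of Cycs the log2 ratio was -1.04 ± 0.10. The membrane channel genes Vdac1 and Vdac2, whose proteins bind family members, had log2 ratios of -0.72 ± 0.03 and -0.66 ± 0.01 and fell. Endog, a mitochondrial nuclease, fell at -0.47 ± 0.34, and the executioner caspase gene Casp6 rose at 0.42 ± 0.16.

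Cycs passed in all 8 settings with a test, while the other calls named here did not. With the scanner software's ratios Vdac1 had an adjusted p of 0.0659 and Vdac2 of 0.0892, and the list then held 1 gene that fell and 0 that rose. Endog did not pass in 2 settings (adjusted p 0.161 and 0.192), nor Casp6 in 3 (0.123 to 0.200). Apaf1 and Casp9, which form the apoptosome with cytochrome c, had mean log2 ratios of -0.0028 and 0.06 and did not pass, and they are named outside the rule.

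Of 9 tested inhibitors of apoptosis 3 rose and 1 fell, with a median of 0.08. Birc3, which encodes cIAP2, rose by 0.82 ± 0.11 (adjusted p = 1.50e-04), Naip2 by 0.60 ± 0.22 and Birc2, which encodes cIAP1, by 0.40 ± 0.30. Birc5, survivin, a gene of dividing cells, fell at -0.40 ± 0.02. Birc3 alone of these 4 passed in all 8 settings with a test. The others lost the call in 2 to 4 settings, with adjusted p up to 0.0677 for Naip2, 0.238 for Birc2 and 0.347 for Birc5. In the death receptor list 0 of 11 tested genes passed with limma, and the ratios lay between -0.27 and 0.25.

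Of 11 tested genes of the list of p53 and its targets, which shares Bbc3 and Pmaip1 with the relatives, 2 rose and 1 fell, with a median of 0.01. Trp53inp1, a p53 target that promotes death and autophagy, rose by 1.51 ± 0.15, or 2.86-fold, and Bbc3 was the other that rose. Trp53 itself, the gene of p53, fell at -0.44 ± 0.0017 with an adjusted p of 0.0127, but did not pass in 3 settings (0.0825 to 0.156). The other 8 tested genes of the list did not pass and are named outside the rule. They were Gadd45a (0.35), Zmat3 (0.31), Mdm2 (0.04), Pmaip1 (0.01), Tnfrsf10b (-0.0023), Phlda3 (-0.02), Perp (-0.05) and Ccng1 (-0.23).

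**Figure D5:**
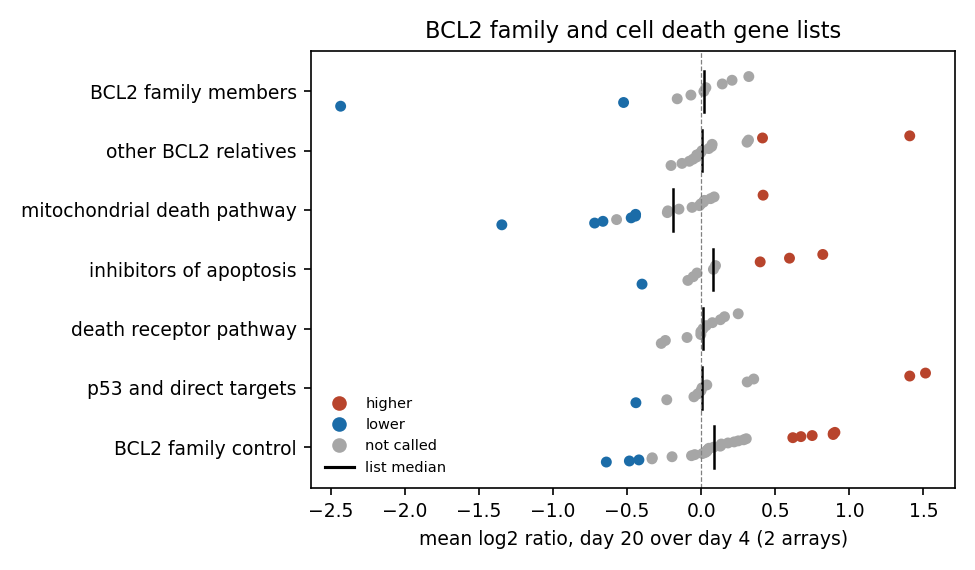
Mean log2 ratio of day 20 over day 4 for each tested gene of the family and of 6 lists of cell death genes, coloured by the limma call, with the median of each list as a bar. The 2 family genes that fell stand at -2.43 and -0.52, and the largest rises of these lists are Trp53inp1 at 1.51 and Bbc3 at 1.41.

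Regulators that act on family genes or proteins were read from a list of 29 tested genes, of which 6 rose and 3 fell, with a median of 0.08. The kinase gene Pim1 (0.90 ± 0.31), whose product phosphorylates BAD, the transcription factor gene Mitf (0.89 ± 0.24) and the cytokine signal transducer gene Stat5a (0.89 ± 0.20) rose and passed in all 8 settings with a test. Ywhaz, a 14-3-3 protein gene whose product holds phosphorylated BAD, rose by 0.75 ± 0.20, while Ywhae, another 14-3-3 gene, fell at -0.49 ± 0.43. Myc fell at -0.64 ± 0.32 and Nfkbib, an inhibitor of NF-kB, at -0.42 ± 0.06. The calls of these last 4 genes were lost in 2 to 4 settings, with adjusted p up to 0.0962 for Ywhaz, 0.247 for Ywhae, 0.121 for Myc and 0.212 for Nfkbib. Foxo1 (0.67 ± 0.08) and Pim2 (0.62 ± 0.24) also rose, while Foxo3 (-0.04) and Foxo4 (0.01) did not pass. They are named outside the rule and were not followed through the other settings. A link between the FOXO genes and Bbc3 was not tested.

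The NF-kB subunit genes, whose products are known to drive A1, did not pass the test. Nfkb1 had a log2 ratio of 0.30 ± 0.0047, Rela 0.29 ± 0.30, Relb 0.25 ± 0.13, Nfkb2 0.18 ± 0.21 and Rel 0.03 ± 0.27. The adjusted p was 0.0868 for Nfkb1 and higher for the others, and these 5 are named outside the rule. These are ratios of RNA and do not measure the activity of NF-kB. A link between NF-kB and the fall of Bcl2a1b was not tested.

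Most tested markers of neutrophils, macrophages and erythroid cells fell, the direction of Bcl2a1b, while most B lineage markers did not pass the test. The test was not passed by 4 neutrophil, 4 monocyte and macrophage, 1 erythroid and 6 B lineage markers. Of 11 tested neutrophil markers out of 18 in the list 7 fell and 0 rose, with a median of -0.88. Their summed normalized intensity was 9278 and 10760 at day 20 on arrays 1 and 2, against 17030 and 16750 at day 4. Of 14 tested monocyte and macrophage markers out of 17, 9 fell and 1 rose, with a median of -0.57 and sums of 2696 and 2620 at day 20, against 7873 and 8522 at day 4. Of 8 tested erythroid markers out of 10, 7 fell, with sums of 2218 and 1945 against 3628 and 3377. Of 9 tested B lineage markers 2 fell and 1 rose, with sums of 1217 and 1708 against 1160 and 1387.

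The strongest falls of these lists were S100a9 (-5.06), a neutrophil calcium-binding protein, and Ctss (-3.60), a cathepsin of antigen-presenting cells. The macrophage list's gene that rose was Ccr2, a chemokine receptor of monocytes, at 0.99 ± 0.34. Camp, a neutrophil granule peptide, was not well above background at day 20 on either array, and Car1 and Hemgn of the erythroid list were well above it at day 20 on 1 array only. These 3 genes are within the counts above and passed the filter through day 4 alone. Among markers well above background in all 4 channels, 6 of 10 of the neutrophil list and 5 of 6 of the erythroid list fell. The other tested neutrophil and macrophage markers were still well above background at day 20. The part of these cells in the fall of Bcl2a1b and of Bak1 was not tested.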

How the data were processed

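The deposited scanner files hold spot intensity values of Agilent Feature Extraction 7.5, per the submitters' processing notes, and log10 ratios of red over green made by the authors' scanner software. The value table deposited for both arrays held the same log10 ratios, in 22393 of 22393 rows within 1e-06. Background medians of 637 cells that a spreadsheet had turned into dates were read back. In limma 3.58.1 (R 4.3.3, with the data.table package at 1.17.8), mean signals less local background were corrected with normexp (offset 50) and loess within each array. Control spots and spots marked as outliers had weight 0 in loess, and marked spots were left out. Array 2 was turned to day 20 over day 4. The normalized intensities of single days, and their sums, were read after a further step between the arrays (Aquantile in limma). That step gives both arrays the same distribution of average log intensity and leaves the ratios unchanged. Statements on whether the days overlapped across the arrays rest on it. The brightest probe stood for a gene, and a gene was tested where the probe was well above background on both arrays in one of the days. The mean ratio was tested against 0 (lmFit, eBayes, two-sided; 1 residual degree of freedom, 12.1 prior), with Benjamini-Hochberg adjustment.

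Probe accessions and symbols were named through RefSeq (GRCm38.p6), which also gave the sequences. The family genes, the lists and the tests were chosen with earlier results of these data known. Outside the family, up to 4 called genes per list and direction and the 5 genes nearest to Bcl2a1b were to be named. The fit was also run on simulated ratios whose noise had the same SD for every spot. With that setting the run cannot speak for calls on dim probes or for differences between pools. The alternatives were the scanner's own log ratios, median centring, a normexp offset of 0, marked spots kept, no filter on dim probes, all 4 channels well above background, the mean of a gene's probes, an intensity trend with a robust prior, and each array alone. A dye term could not be fitted beside the ratio, since 2 arrays leave 0 degrees of freedom.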

Additional observations from a re-analysis of the deposited data

How the results depend on the processing

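Bcl2a1b remained a call in the 8 alternatives with a test, and Bak1 in 6 of them. With the scanner software's ratios 1 family gene fell, and with median centring in place of loess 1 fell, against 2 in the report; Bcl2a1b was the gene in both. Over all genes the scanner software's ratios gave 611 higher and 633 lower, and median centring 563 and 790, against 1407 and 1675. In the other 6 alternatives these counts were within 1.5 times. No mean ratio of a family gene changed its sign in the alternatives with a test. Each array alone gives a value with no test: -2.64 to -2.23 for Bcl2a1b, -0.74 to -0.31 for Bak1 and -0.45 to 0.13 for Bax. Of 46 other named genes the call was lost for 14 with the scanner software's ratios, 12 with median centring, 6 with an offset of 0, 3 with an intensity trend, and 1 each with marked spots kept and with no filter. Each array holds both days, so the ratio tested is already the paired comparison and no further block could be added. Signal over background limits Bcl2l1, Bcl2l11, Bad and Bid, and Bcl2a1b at day 20.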

Other observations

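Some probes carry only an accession and a description that names the family. A probe described as Bcl-associated death promoter, the meaning of the symbol Bad, had log2 ratios of day 20 over day 4 of 0.07 and 0.06, close to the -0.02 and 0.09 of the Bad probe, and did not pass the test (limma, adjusted p = 0.945). A probe described as a hypothetical protein with a Bcl-2 family BH domain had a mean of -0.04 ± 0.05 (SD, n = 2, adjusted p = 0.980). A probe weakly similar to human BCL-G had -0.09 ± 0.04 (adjusted p = 0.868). None of these 3 probes was counted among the 9 family genes.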
